A study of Mus musculus with 22 samples.

Results

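Transforming growth factor beta (TGF-beta) signalling and the Runx transcription factors were examined through chromatin accessibility at 10 genes in adipocyte nuclei of lean, obese and formerly obese mice. The members were the ligand genes Tgfb1, Tgfb2 and Tgfb3, the receptor genes Tgfbr1, Tgfbr2 and Tgfbr3, the SMAD genes Smad3 and Smad7, and Runx1 and Runx2. They were chosen by name, with earlier results of these data known, as 10 of 21911 protein-coding genes on chromosomes 1 to 19, X and Y. The locus of a gene was its span in build GRCm38 with 20 kb added on each side. Peaks of all libraries that touched each other were merged into 104657 regions, and 83 of these overlapped the 10 loci.

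TGF-beta ligands are secreted in a latent form, and once released they bind a type II receptor that phosphorylates a type I receptor. The active receptor phosphorylates SMAD2 and SMAD3, which enter the nucleus with SMAD4 and bind DNA beside other factors, while SMAD7 is induced by the pathway and blocks it. In adipose tissue the pathway is known for driving fibrosis and for restraining adipocyte differentiation. Runx factors bind DNA as pairs with CBFB and often act together with SMADs. RUNX2 is the master regulator of bone formation and RUNX1 a regulator of blood cell formation.

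ATAC-seq, in which a transposase cuts open chromatin, was run on epididymal fat of male AdipoERCre x NuTRAP mice on a background that the labels spell C576BL6. All 8 groups carried both alleles and received tamoxifen. In these mice the Adipoq promoter drives an inducible Cre that switches on a tag for nuclei, so the nuclei pulled down came mainly from cells in which that promoter was active. In the shorter experiment, C mice ate chow until 18 weeks of age, H mice of the same age had 12 weeks of high-fat diet, CC_s mice ate chow until 26 weeks, and HC mice of 26 weeks had 12 weeks of high-fat diet and then 8 weeks of chow. Each of these groups had 3 libraries. In the longer experiment, CC_l mice ate chow until 31 weeks (2 libraries), HH mice of 31 weeks had 25 weeks of high-fat diet (3 libraries), CCC mice ate chow until 39 weeks (2 libraries), and HHC mice of 39 weeks had 25 weeks of high-fat diet and then 8 weeks of chow (3 libraries). The last 8 weeks were spent on another chow, which CC_s and CCC mice received too. The lengths of the diets coincided with the library series, so diet length and series cannot be told apart.

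Each library held between 40528 and 60523 peaks over 128 to 299 Mb, and the sequencing depth of each is unknown. The enrichment ratio, the median peak height divided by the lowest peak height of a library, was under 4 in 4 libraries (HC 3, HHC 3, HH 1 and CCC 2). It was 4.7 to 6.4 in H against 6.82 to 8.92 in C, and 2.43 to 6.50 in HC against 7.30 to 7.42 in CC_s. All 12 adipocyte markers had a promoter peak in all 22 libraries, and 6 of 12 lymphocyte markers had none in any. Endothelial markers had a promoter peak at 12 of 12 genes in HH 1, at 7 in HHC 3 and CCC 2 and at 5 in HC 3, against 2 to 4 in each other library. Their mean log2 locus signal was 16.56 to 18.11 in those 4 libraries and 15.52 to 16.37 elsewhere. By group it was 15.85 to 16.37 in H against 15.68 to 15.73 in C, and 15.82 to 16.94 in HC against 15.52 to 15.73 in CC_s, both apart. It was 15.83 to 18.11 in HH against 15.69 to 15.88 in CC_l, and 15.59 to 17.34 in HHC against 15.59 to 16.56 in CCC, both overlapping. Progenitor and fibroblast markers had a promoter peak at 7 to 10 of 12 genes in each library, 4 of them (Pdgfra, Col1a1, Col3a1 and Dcn) in all 22, and macrophage markers at 2 to 6 of 12. Mesothelial markers had one at 0 to 2 of 8 genes in H and HH, at 1 to 5 in the chow groups and at 2 to 6 in HC and HHC, with Upk1b and Gpm6a at 0 throughout. Calls over both durations are given below with and without the 4 libraries. Fewer nuclei of a type and less open chromatin per nucleus cannot be told apart in such bulk libraries.

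The locus signal was the deposited total signal of all peaks overlapping a locus, summed, placed on a common scale by rank within each library and given as log2. Differences are log2 differences with their standard error. Adjusted p-values are from limma with Benjamini-Hochberg adjustment over all loci, regions or promoters tested. Obesity over both durations is the mean of the differences H minus C and HH minus CC_l, and weight loss over both durations is the mean of HC minus CC_s and HHC minus CCC. Openness per length differed widely between members. Peaks covered a median of 64.7% of the Tgfb1 locus and 62.1% of the Tgfbr3 locus over the 22 libraries, but 6.72% of Runx2, 7.79% of Tgfb2 and 7.96% of Tgfbr1. Tgfb3 (40.8%), Smad7 (36.6%), Smad3 (36.2%), Tgfbr2 (18.5%) and Runx1 (13.5%) lay between. A promoter peak was found in all 22 libraries for 8 members, in 20 for Runx2 and in 6 for Tgfb2.

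Runx2 was the 1 member that passed the test in both obesity and weight loss, higher in each. Its locus signal was 2.14-fold higher in obesity over both durations and 1.74-fold higher after weight loss, and both passed the test. Tgfbr2 fell 3.20-fold in H mice against C mice. Of 10 member loci 2 passed an adjusted p of 0.05 in H against C, Tgfbr2 lower and Runx2 higher, where 9.13% of all 18013 loci passed. In obesity over both durations 1 of 10 passed (Runx2), with 7.86% of all 19704 loci passing, and after weight loss 1 of 10 passed (Runx2), with 1.96% of all loci passing. Without the 4 libraries of low enrichment, 2 of 10 passed in obesity (Tgfbr2 and Runx2), with 19.4% of all loci passing, and 0 of 10 after weight loss, with 0.827% of all loci passing. In limma's fits of HC against CC_s, HH against CC_l and HHC against CCC, 0 members and 0 of all loci passed. At an unadjusted p of 0.05, 4 members passed in H against C (29.6% of all loci), Tgfb1 and Runx2 higher and Tgfbr2 and Tgfbr3 lower. In the other 3 pairs, 2 members (8.07% of all loci), 2 members (11.8%) and 1 member (3.79%) passed, always with Runx2 among them. Groups were apart, with no overlap of their libraries, for 2 members higher and 2 lower in H against C (19% and 16.9% of all loci), 2 higher and 2 lower in HC against CC_s (6.1% and 8.6%), 5 higher and 0 lower in HH against CC_l (14.6% and 16.4%), and 1 higher and 3 lower in HHC against CCC (9.82% and 13.1%). Between the chow groups of the longer experiment, 6 members were apart, higher in CCC than in CC_l (19.4% of all loci), Tgfb3, Tgfbr2, Tgfbr3, Smad3, Smad7 and Runx1. Over both durations, 5 members passed the unadjusted level in obesity, Runx2, Smad3 and Smad7 higher and Tgfb3 and Tgfbr2 lower, beside 22% of all loci. After weight loss 3 did, Runx2 higher and Tgfb3 and Tgfbr3 lower, beside 20.5% of all loci. The median difference of the 10 members was 0.14 in obesity and 0.01 in weight loss, where the median over all loci was 0.00 in each. Runx2 was apart, higher, in both obesity pairs, as 7% of all loci were, and no member was apart, lower, in both, as 6.32% of all loci were.

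**Figure D1:**
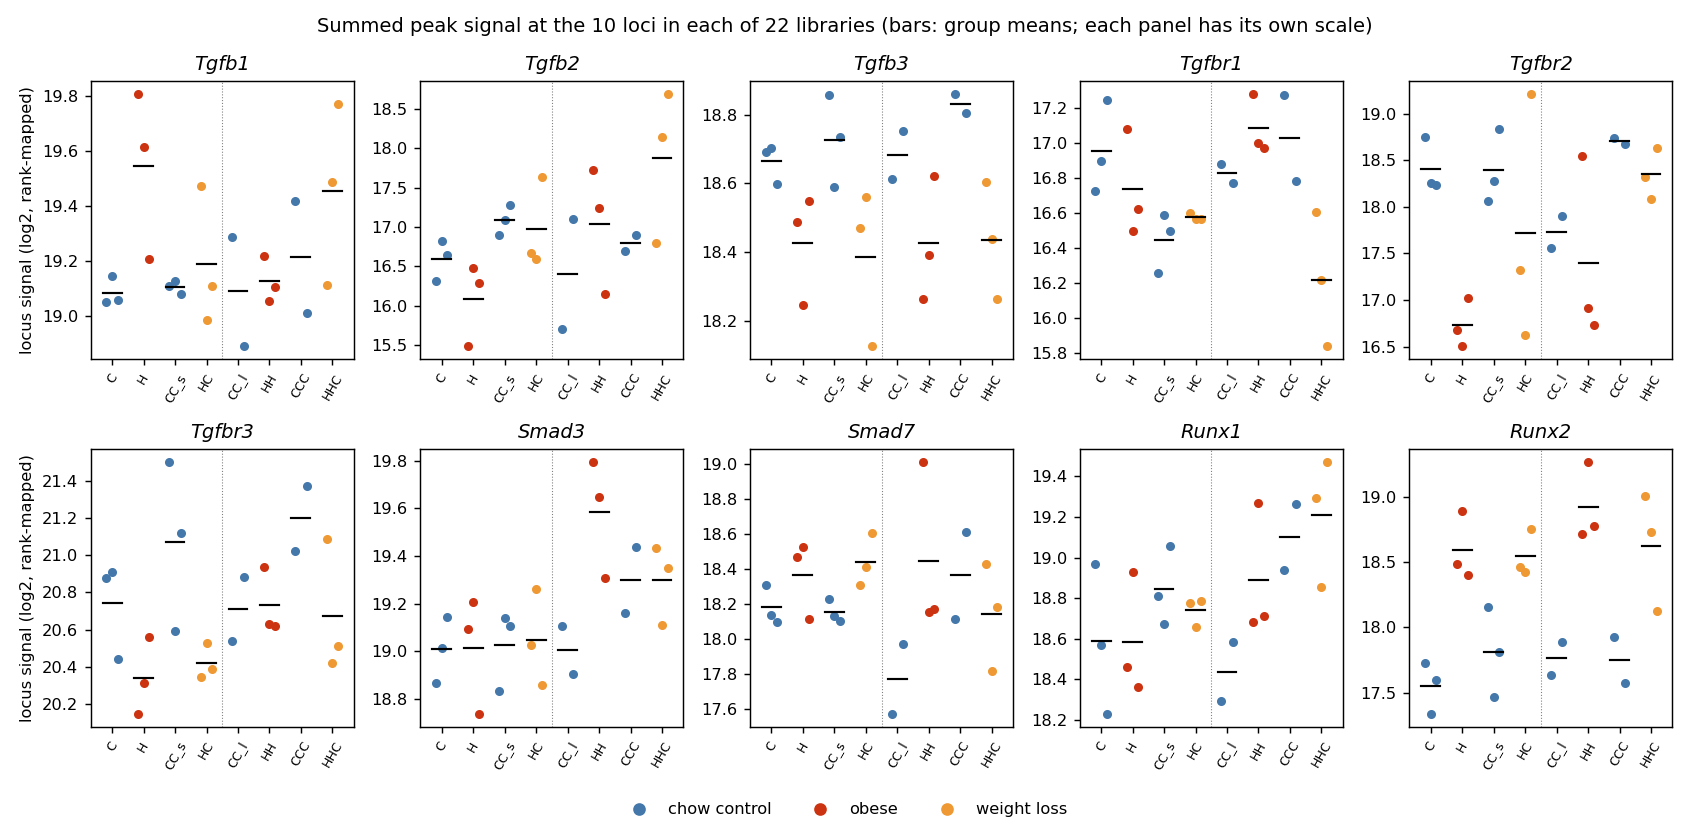
Locus signal (log2, rank-mapped, vertical axis) of the 10 members in each of 22 libraries, by group, with chow controls in blue, obese groups in red and weight loss groups in orange; bars are group means and a dotted line parts the shorter from the longer experiment. At Runx2 the 12 libraries of mice that had eaten the high-fat diet all lie above their matched controls, and at Tgfbr2 the 3 H libraries lie between 16.50 and 17.02, below all C libraries.

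**Figure D2:**
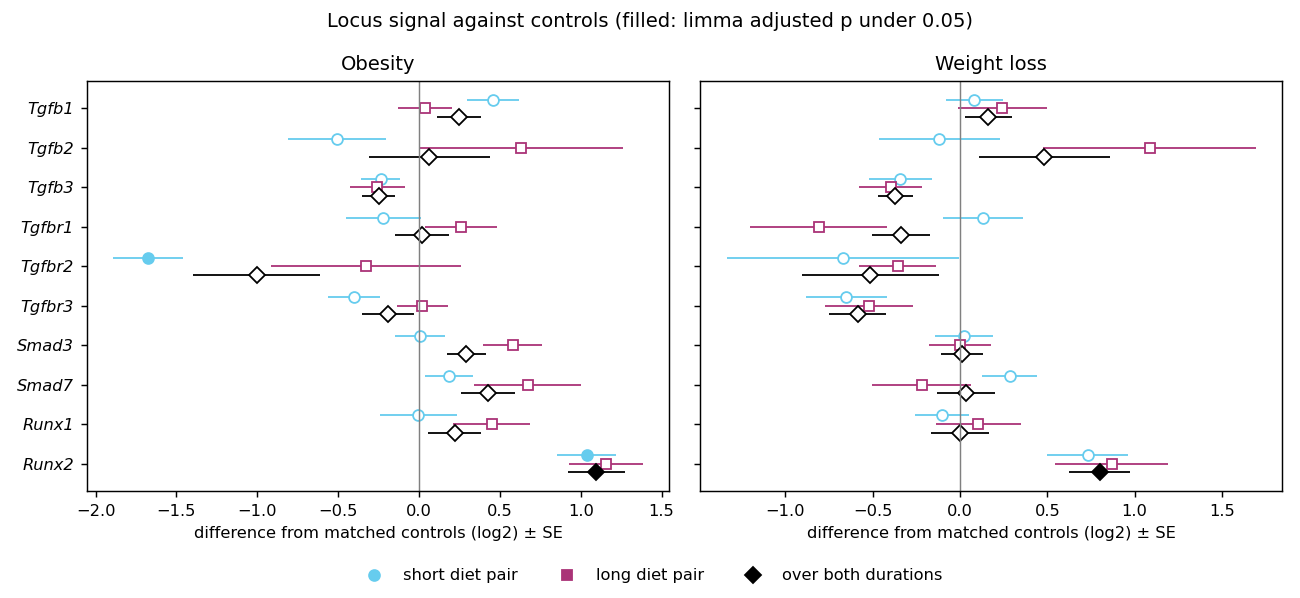
Log2 difference of locus signal from matched controls (horizontal axis) with its standard error for each member, in obesity at left and weight loss at right, for the shorter pair, the longer pair and the mean of both; filled marks passed limma's adjusted p of 0.05. Filled marks appear for Runx2 in obesity and weight loss and for Tgfbr2 in H against C.

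Among regions, 57 of the 83 at these loci were above the lowest rank in enough libraries to be tested over both durations. In H against C, 7 of 35 tested member regions passed an adjusted p of 0.05 with a log2 difference above 1 either way (8.28% of all 30840 regions did). Of these, 3 at Runx2 were higher, and 3 at Tgfbr2 and 1 at Tgfb2 were lower. In obesity over both durations 5 of 57 passed, 2 at Runx2 higher and 1 each at Tgfbr2, Tgfb2 and Tgfb3 lower, with 3.13% of all 49133 regions passing. After weight loss 1 of 57 passed, at Tgfb3, and it was lower, with 0.983% of all regions passing. None of 41, 42 and 45 member regions, and 0 of all regions, passed in limma's fits of HC against CC_s, HH against CC_l and HHC against CCC. At an unadjusted p of 0.01 with the same fold threshold, 0, 3 and 0 member regions passed in these, beside 2.54%, 2.68% and 0.706% of all regions. The 7 calls in H against C rest on few libraries each, as given beside them, and 2 of the 7 regions, at 158 kb in Runx2 and in an intron of Tgfbr2, were above the floor only in the group where they were higher, which alone brought them into that test. With no filter on regions 2 of the 7 calls in H against C were left. No member locus or region passed a test of the difference between durations, in obesity or in weight loss.

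**Figure D3:**
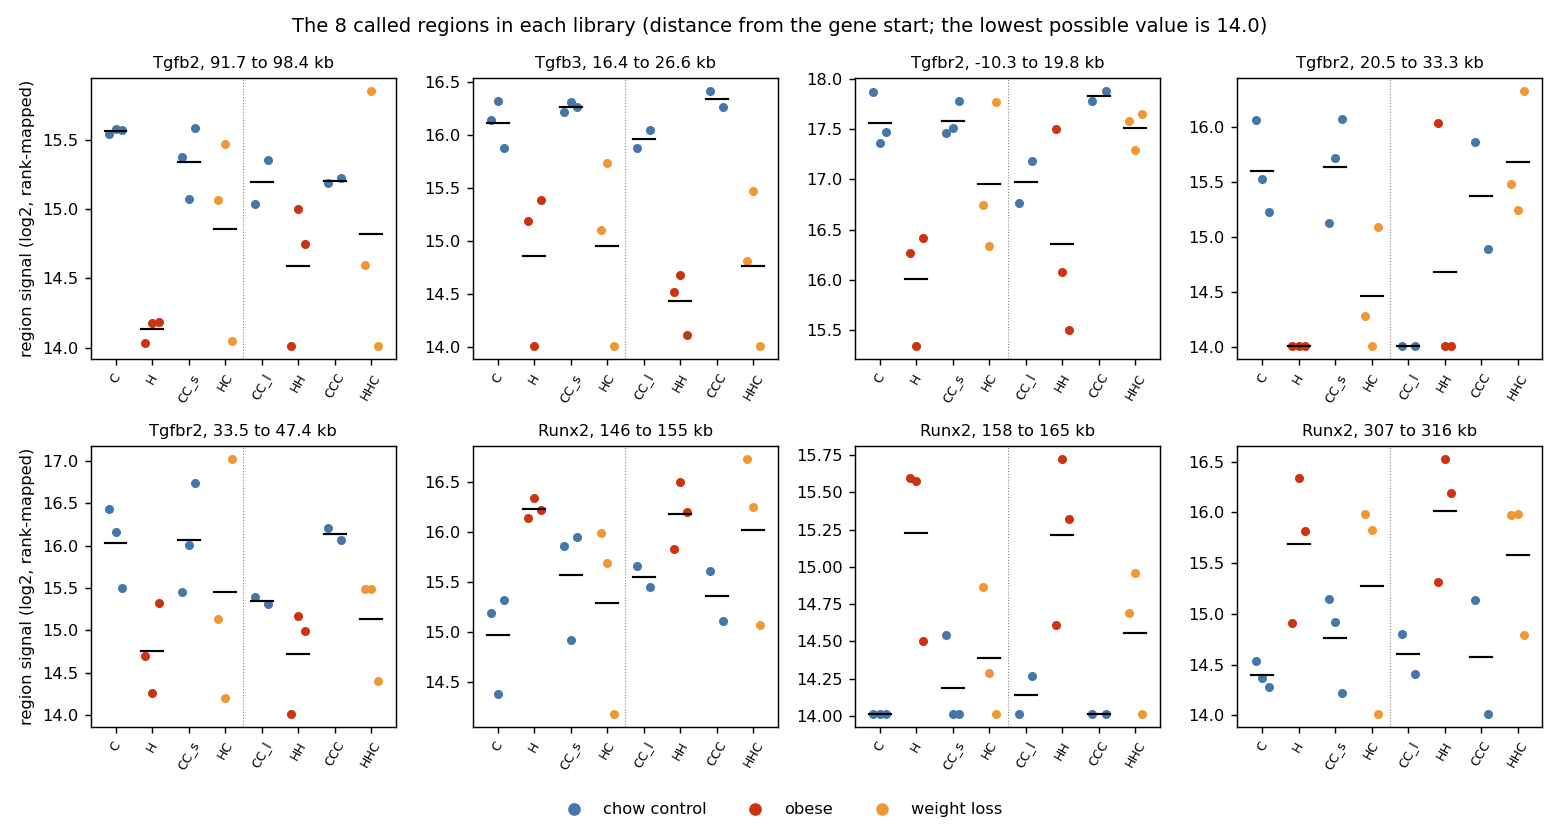
Region signal (log2, rank-mapped, vertical axis) in each library for the 8 regions called in at least 1 comparison, named by gene and by distance from the gene start; colours and bars are as in the plot of locus signal, and 14.01 is the floor, the lowest value a region can take. The 3 Runx2 regions are higher in H and HH than in their controls, and the Tgfb3 region is lower in every obese and weight loss group than in its controls.

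Among the ligand genes, Tgfb3 carried the 1 region of all members that passed the test in both obesity and weight loss, and it was lower in each. TGFB3 is the isoform known for palate closure and for scar-poor healing. The gene lies at chr12:86056745-86079041 on the minus strand, and its locus also holds parts of Ttll5 and Ift43. Across the locus, signal was 18.60 to 18.70 in C and 18.24 to 18.55 in H, 18.59 to 18.86 in CC_s and 18.13 to 18.56 in HC, 18.61 and 18.75 in CC_l and 18.26 to 18.62 in HH, and 18.80 and 18.86 in CCC and 18.26 to 18.60 in HHC. The weight loss groups lay below their controls in both pairs, as 3.1% of all loci did. The locus differences were small, -0.25 ± 0.10 in obesity (adjusted p = 0.157) and -0.37 ± 0.10 after weight loss (adjusted p = 0.0742). Without HHC 1 the latter passed (-0.41, adjusted p = 0.0456), and without the 4 libraries of low enrichment it was -0.28 (adjusted p = 0.260).

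The Tgfb3 region in question, chr12:86052475-86062624, began 16.4 kb downstream of the gene start, covered the 3′ end of the gene and ran beyond it, where it also overlapped Ttll5. Its signal was 16.15, 16.32 and 15.88 in C and 15.19, 14.01 and 15.39 in H. In the longer experiment CC_l had 15.88 and 16.05, and HH had 14.52, 14.69 and 14.12. After weight loss, HC had 15.10, 15.74 and 14.01 against 16.22, 16.31 and 16.27 in CC_s. In the last pair, HHC had 14.82, 15.47 and 14.01 against 16.42 and 16.27 in CCC. No library of a mouse that had eaten the high-fat diet reached its matched controls in any of the 4 pairs. Regions apart, lower, in both pairs made up 5.81% of all regions in obesity and 3.02% in weight loss. The Tgfb3 region fell by 1.39 ± 0.32 in obesity (adjusted p = 0.0105) and by 1.44 ± 0.32 after weight loss (adjusted p = 0.0244). The weight loss call was lost without CC_s 2, CC_s 3, CCC 1 or CCC 2 (adjusted p from 0.0531 to 0.0770), and without the 4 libraries of low enrichment (-1.06, adjusted p = 0.101), when obesity gave -1.41 (adjusted p = 0.00245). On peak height in place of total signal the obesity difference was -0.88 (adjusted p = 0.0714), and with the 30000 strongest peaks it was -0.89 (adjusted p = 0.0112), under the fold threshold.

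Tgfb2, at chr1:186622792-186705989 on the minus strand, encodes the ligand known for heart and eye development. Its promoter had a peak in 6 of 22 libraries, and the locus held 13 regions, of which 6 (46.2%) had no peak in any chow control, beside 47.9% of all regions. Locus signal ranged from 15.48 in H 1 to 18.69 in HHC 3, with differences of 0.06 ± 0.37 in obesity and 0.48 ± 0.37 after weight loss that did not pass. A region in the 3′ flank, chr1:186607617-186614322, 91.7 to 98.4 kb from the gene start, went lower in H. It stood at 15.54, 15.57 and 15.57 in C against 14.04, 14.18 and 14.19 in H, close to the floor. The 2 groups did not overlap, and the region fell by 1.43 ± 0.20 (adjusted p = 0.00733). HH libraries were at 14.01, 15.00 and 14.75 against 15.04 and 15.35 in CC_l, all lower. Over both durations the difference was -1.02 ± 0.31 (adjusted p = 0.0467), a call lost in 17 of 22 fits without 1 library each (adjusted p up to 0.162) and without the 4 libraries of low enrichment, where it was -0.87, under the fold threshold. The call in H against C was lost without C 2 (-1.42, adjusted p = 0.0592). HC had 15.06, 15.47 and 14.05 and HHC 14.59, 15.85 and 14.01, overlapping with CC_s (15.07 to 15.58) and CCC (15.18 and 15.22).

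To show the letters under these ligand regions, the 200 bases around the highest peak summit over all libraries are printed, from the plus strand of GRCm38. In all printed sequences capitals mark matches on either strand to TGTGGT (the core that Runx factors bind), TGANTCA (the AP-1 element) and CAGAC (a SMAD box). These motifs were held by 12.9%, 7.99% and 40.4% of the summit windows of all 49127 tested regions with complete sequence. The Tgfb2 window is chr1:186609923-186610122, in which 17 of 21 libraries with a peak had their own summit. The Tgfb3 window is chr12:86059422-86059621, with 10 of 20, and none of the 3 motifs was found in it.
Tgfb2 flank region: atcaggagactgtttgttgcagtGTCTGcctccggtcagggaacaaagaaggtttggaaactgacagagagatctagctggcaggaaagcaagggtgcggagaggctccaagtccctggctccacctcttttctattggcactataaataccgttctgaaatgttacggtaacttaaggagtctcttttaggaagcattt
Tgfb3 end region: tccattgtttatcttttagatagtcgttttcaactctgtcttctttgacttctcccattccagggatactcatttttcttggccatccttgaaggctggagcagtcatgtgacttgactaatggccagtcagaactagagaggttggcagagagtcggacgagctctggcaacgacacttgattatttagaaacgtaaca

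Tgfb1, the ligand most studied in fibrosis, lies at chr7:25687002-25705077 on the plus strand in a gene-dense window shared with Exosc5, Tmem91, B9d2, Ccdc97 and Hnrnpul1, and peaks merged into 2 regions of 52.9 and 48.3 kb. Locus signal was 19.05, 19.15 and 19.06 in C and 19.81, 19.62 and 19.21 in H. H lay above C without overlap, with a difference of 0.46 ± 0.16 (adjusted p = 0.123). Without H 3 it passed (0.63, adjusted p = 0.0419). In the longer pair CC_l had 19.29 and 18.89 and HH 19.22, 19.06 and 19.11, which overlapped. The downstream region, chr7:25701398-25749744, which also overlaps Ccdc97 and Hnrnpul1, was 0.47 ± 0.11 higher in H than in C (adjusted p = 0.0250), under the fold threshold. Promoter signal was 17.87, 17.75 and 17.53 in C and 18.36, 18.53 and 18.15 in H, and 18.03 and 18.05 in CC_l and 17.99, 16.67 and 16.86 in HH. It lay higher in H than in C (0.63 ± 0.19, adjusted p = 0.139) and lower in HH than in CC_l (-0.87 ± 0.45, adjusted p = 0.745), without overlap in each pair, and the test of the difference between durations gave an unadjusted p of 0.00888 (adjusted p = 1).

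Tgfbr2 encodes the type II receptor, the kinase that binds TGF-beta ligands first and then phosphorylates the type I receptor. The gene lies at chr9:116084293-116175360 on the minus strand, and its locus also touches Gadl1. Chow controls of the shorter experiment had peaks over long stretches of it. Peaks covered 40.9, 38.3 and 49.7 kb in the C libraries and 10.1, 10.95 and 12.4 kb in the H libraries. Locus signal was 18.75, 18.25 and 18.23 in C and 16.68, 16.50 and 17.02 in H. Each H library was thus lower than each C library by both measures. The locus signal fell by 1.68 ± 0.21 (adjusted p = 0.0143) and the covered length by 1.86 ± 0.19 on the log2 scale (adjusted p = 0.0102). For covered length 2 of 10 members passed, Tgfbr2 and Runx2, with 2.92% of all loci passing.

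After weight loss, HC had Tgfbr2 locus signals of 17.32, 16.62 and 19.21 against 18.06, 18.28 and 18.83 in CC_s. In HH they were 18.54, 16.92 and 16.73 against 17.56 and 17.90 in CC_l. HHC had 18.32, 18.09 and 18.63 against 18.74 and 18.68 in CCC. HC 3 and HH 1, both of low enrichment, were the highest of their groups and lay above every matched control, whereas their group mates lay below, and all HHC libraries lay below both CCC libraries. The differences were -0.67 ± 0.67 for HC against CC_s (adjusted p = 0.684), -0.33 ± 0.59 for HH against CC_l (adjusted p = 0.858) and -0.36 ± 0.22 for HHC against CCC (adjusted p = 0.833). Over both durations obesity gave -1.003 ± 0.393 (adjusted p = 0.136), which passed without HC 3 (adjusted p = 0.0357), without HH 1 (-1.29, adjusted p = 0.0393) and without all 4 libraries of low enrichment (-1.29, adjusted p = 0.00121). Weight loss gave -0.52 ± 0.39 (adjusted p = 0.436). Control groups differed too, as CCC was 0.98 ± 0.19 above CC_l without overlap (unadjusted p = 0.00399, adjusted p = 0.540). The difference between H and C passed neither without C 2 (-1.76), nor without H 1 (-1.65), nor without H 2 (-1.56), with adjusted p from 0.0556 to 0.0575. Enrichment ratios and the number of mesothelial markers with a promoter peak were also lower in H than in C, and the mean locus signal of the 12 endothelial markers was higher (15.85 to 16.37 against 15.68 to 15.73). Their part in the difference was not tested.

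Within the locus, 3 neighbouring Tgfbr2 regions fell in H. The promoter region, chr9:116155575-116185652, ran from 10.3 kb upstream to 19.8 kb downstream of the gene start and had a peak in all libraries. Its signal was 17.86, 17.36 and 17.47 in C and 16.27, 15.35 and 16.41 in H, a fall of 1.55 ± 0.29 (adjusted p = 0.0142). Over both durations it fell by 1.08 ± 0.31 (adjusted p = 0.0383), and without the 4 libraries of low enrichment by 1.37 (adjusted p = 0.000778). On peak height the H difference was -0.43 (adjusted p = 0.181), so the summed signal passed and the height did not. The next region, chr9:116142096-116154821, lay in an intron 20.5 to 33.3 kb from the start. It had a peak in 3 of 3 C libraries and in 0 of 3 H libraries, with C at 16.06, 15.53 and 15.23 and H at the floor of 14.01, so the difference of -1.59 ± 0.26 (adjusted p = 0.0103) depends on where the floor lies. The region entered that test through its C libraries alone, and with no filter the adjusted p was 0.0438. It had a peak in 3 of 3 CC_s, 2 of 3 HC, 1 of 2 CC_l, 1 of 3 HH, 2 of 2 CCC and 3 of 3 HHC libraries. The third, chr9:116128007-116141847, spanned an exon 33.5 to 47.4 kb from the start and stood at 16.43, 16.16 and 15.50 in C against 14.69, 14.26 and 15.32 in H (-1.27 ± 0.35, adjusted p = 0.0444).

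These region calls rested on single libraries to different degrees. In H against C, the intron call was lost without C 2 (adjusted p = 0.0657), the promoter region call without C 1, C 2 or H 1 (0.0507 to 0.0723), and the exon call without any library but H 3 (0.0528 to 0.176). The obesity call at the promoter region was lost without C 1, C 2, C 3, H 2, CC_l 1, CC_l 2, HH 2, HH 3 or CCC 1 (0.0501 to 0.148). The promoter signal sums the whole signal of every peak that overlaps the 2000 bp on either side of a transcription start. It thus also holds signal outside that window. At Tgfbr2 it fell by 1.24 ± 0.19 in H (adjusted p = 0.0327), as 1 of 9 member promoters tested did beside 1.97% of all promoters. That call was lost without any 1 of the 6 libraries (0.0551 to 0.111) and on peak height (-0.31, adjusted p = 0.399). Over both durations 0 of the member promoters passed in limma's fit, in obesity (1.3% of all promoters) or weight loss (0.135%). At an unadjusted p of 0.01 with the fold threshold, 0 of 10 passed in obesity (2.5% of all promoters), 1 of 10 in weight loss (1.96%) and 1 of 9 in HC against CC_s (1.37%), in both cases Tgfbr3, lower. In the longer experiment the Tgfbr2 promoter region stood at 17.50, 16.08 and 15.50 in HH against 16.77 and 17.19 in CC_l, and these groups overlapped.

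**Figure D4:**
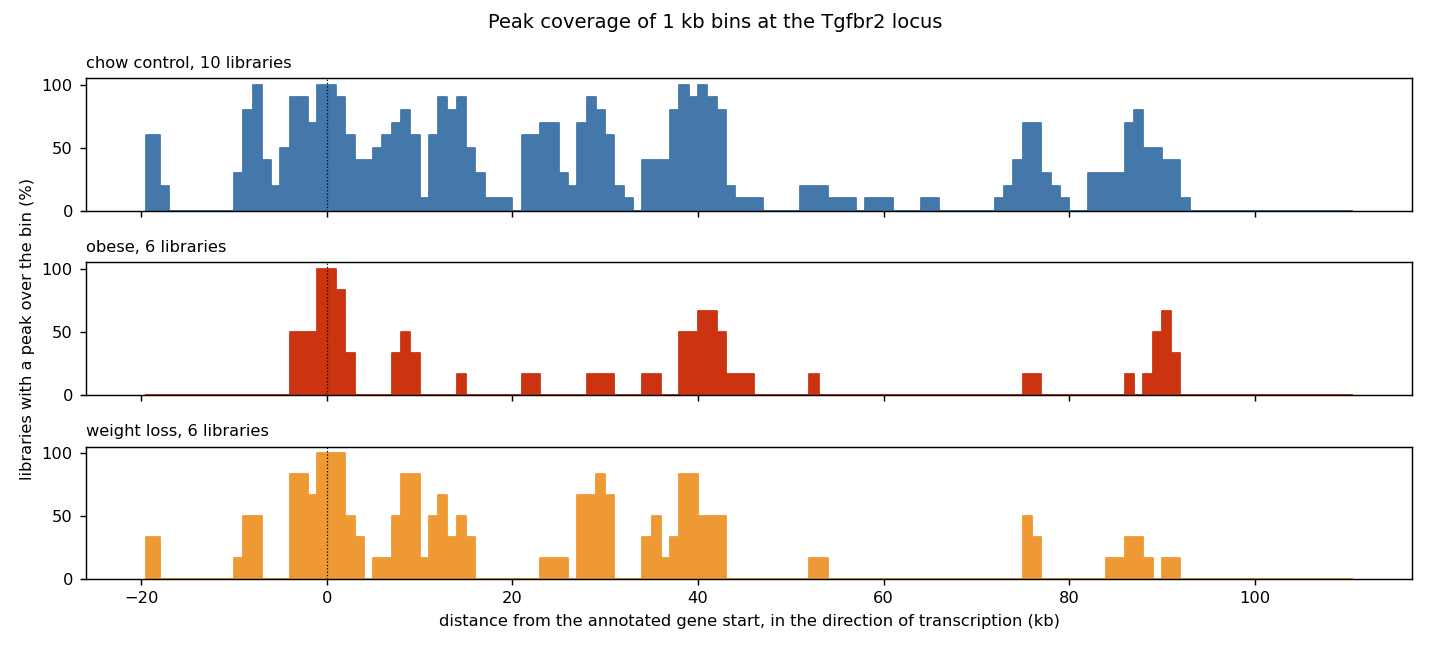
Share of libraries (vertical axis, %) with a peak over at least 50% of each 1 kb bin, by distance from the Tgfbr2 gene start (horizontal axis, kb), for 10 control, 6 obese and 6 weight loss libraries. Peaks over the gene start are in all libraries, while the bin that begins 8 kb upstream, singled out after its values were seen, is covered in 10 of 10 control, 0 of 6 obese and 3 of 6 weight loss libraries.

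The Tgfbr2 sequences are shown because these 3 regions held the lower signal in H. The summit of the promoter region lay 0.01 kb from the gene start, in 20 of 22 libraries within the same 200 bases, and is represented by the 200 bases directly upstream of the RefSeq start, chr9:116175364-116175563 on the minus strand (GRCm38.p6). The intron window is chr9:116150861-116151060, which held the own summit of 4 of 15 libraries, and the exon region's window is chr9:116136904-116137103, with 14 of 22. Each printed sequence held 1 SMAD box and no RUNX or AP-1 match. The summit window of the promoter region itself, which overlaps the start of the transcript and is not printed, held 1 AP-1 element and no RUNX or SMAD match.
Tgfbr2 upstream: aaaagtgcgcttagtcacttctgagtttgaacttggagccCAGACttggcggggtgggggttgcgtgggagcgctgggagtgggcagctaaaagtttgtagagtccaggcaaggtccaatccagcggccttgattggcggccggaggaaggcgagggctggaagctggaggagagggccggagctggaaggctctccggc
Tgfbr2 intron region: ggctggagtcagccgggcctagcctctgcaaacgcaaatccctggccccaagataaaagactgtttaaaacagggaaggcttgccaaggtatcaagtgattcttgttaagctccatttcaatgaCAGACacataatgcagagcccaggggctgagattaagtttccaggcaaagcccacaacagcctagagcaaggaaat
Tgfbr2 exon region: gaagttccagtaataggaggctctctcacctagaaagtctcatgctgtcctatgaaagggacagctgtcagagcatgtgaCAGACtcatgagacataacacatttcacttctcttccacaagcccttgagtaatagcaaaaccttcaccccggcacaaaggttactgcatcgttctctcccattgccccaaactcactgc

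Tgfbr3 encodes betaglycan, a co-receptor that presents TGF-beta2 to the type II receptor. The gene, at chr5:107106570-107289629 on the minus strand, was spanned by a region of 216 kb once peaks of all libraries were merged, while single libraries had peaks over 20.1% (HC 3) to 92.3% (CC_s 2) of the locus. Peaks covered 130 to 194 kb in C, 96.0 to 118 kb in H, 185 to 206 kb in CC_s and 44.9 to 153 kb in HC. Locus signal was 20.35, 20.53 and 20.39 in HC and 21.50, 20.60 and 21.12 in CC_s, and 21.09, 20.42 and 20.52 in HHC and 21.02 and 21.37 in CCC. HC lay below CC_s without overlap, and HHC overlapped with CCC. After weight loss the locus difference was -0.59 ± 0.16 (adjusted p = 0.0764), which passed without CC_s 2 (-0.71, adjusted p = 0.0462) or HHC 1 (-0.69, adjusted p = 0.0292). The adjusted p was 0.0292 to 0.268 over the removals of 1 library, 0.175 without HC 3 and HHC 3 (-0.54) and 0.396 without the 4 libraries of low enrichment (-0.45). The merged region was lower after weight loss by 0.69 ± 0.13 (adjusted p = 0.0121), under the fold threshold, and both pairs were apart. The promoter difference was -1.77 ± 0.41 (adjusted p = 0.0879) and passed without HHC 1 (-2.07, adjusted p = 0.0447), with an adjusted p of 0.0447 to 0.246 over the removals of 1 library and 0.309 without the 4 libraries (-1.93). On peak height the locus difference turned to 0.25 (adjusted p = 0.466), whereas covered length, like summed signal, was lower (-0.34 ± 0.15, adjusted p = 0.270).

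Tgfbr1, the type I receptor gene at chr4:47353222-47414931 on the plus strand, had 5 regions and no call. Locus signal was 16.60, 16.22 and 15.84 in HHC against 17.27 and 16.78 in CCC, without overlap (-0.81 ± 0.39, adjusted p = 0.833). HC, at 16.60, 16.56 and 16.57, overlapped with CC_s, at 16.25, 16.59 and 16.50. The other way, HH, at 17.28, 17.00 and 16.97, lay above CC_l, at 16.88 and 16.77, as 14.6% of all loci did. H, at 16.50 to 17.08, overlapped with C, at 16.73 to 17.25. The promoter region, chr4:47347709-47357110, was 0.43 ± 0.13 lower in obesity (adjusted p = 0.0546). It stood at 16.28, 16.40 and 16.23 in C against 15.94, 15.64 and 15.63 in H, and at 16.37 and 16.20 in CC_l against 16.24, 15.98 and 15.80 in HH.

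Smad3 encodes the receptor-activated SMAD that carries most TGF-beta responses, and lies at chr9:63646767-63757994 on the minus strand beside Aagab. Its locus signal was 19.80, 19.65 and 19.31 in HH and 19.10 and 18.91 in CC_l. All HH libraries were higher than both CC_l libraries, with a difference of 0.58 ± 0.18 (adjusted p = 0.330). In the shorter pair H, at 19.10, 19.21 and 18.74, overlapped with C, at 18.87, 19.01 and 19.14. CCC, at 19.16 and 19.44, overlapped with HH. Obesity over both durations gave 0.29 ± 0.12 (adjusted p = 0.157), and on peak height -0.03. An intronic region, chr9:63694218-63728036, stood at 18.06, 18.01 and 17.46 in HH against 16.89 and 16.61 in CC_l (1.09 ± 0.23, adjusted p = 0.171). The difference between durations was 0.57 ± 0.24 at the locus (unadjusted p = 0.0297, adjusted p = 1).

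Smad7, the inhibitory SMAD gene at chr18:75367529-75395935 on the plus strand, had a locus signal of 18.47, 18.52 and 18.12 in H against 18.31, 18.14 and 18.10 in C. HH had 19.01, 18.15 and 18.17 against 17.57 and 17.97 in CC_l. The HH libraries lay above CC_l, and the highest was HH 1, the library with promoter peaks at 12 of 12 endothelial markers. CCC, at 18.12 and 18.61, overlapped with HH. After weight loss HC (18.31 to 18.605) lay above CC_s (18.10 to 18.23) without overlap, as 6.1% of all loci did. HHC, at 17.82 to 18.43, overlapped with CCC. Obesity over both durations gave 0.43 ± 0.17 (adjusted p = 0.133), and 0.29 without the 4 libraries of low enrichment (adjusted p = 0.149). Its region of smallest p in obesity, chr18:75401684-75407562 in the 3′ flank, had a peak in 3 of 3 HH and 0 of 2 CC_l libraries and in 3 of 3 H and 3 of 3 C libraries (0.42 ± 0.17, adjusted p = 0.136). This region stood at 14.30, 15.21 and 14.38 in HH, within which both CCC values lay (14.50 and 14.57), and at 14.30, 14.01 and 14.01 in HHC.

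Runx1, at chr16:92601466-92826149 on the minus strand, had 20 regions, more than any other member, and none was called. Locus signal was 18.97, 18.57 and 18.23 in C, 18.46, 18.93 and 18.36 in H, 18.29 and 18.59 in CC_l and 18.68, 19.27 and 18.71 in HH. H overlapped with C, and HH lay above CC_l. CCC, at 18.94 and 19.27, lay above CC_l as well (0.66 ± 0.19, adjusted p = 0.540). The obesity difference was 0.22 ± 0.16 and the weight loss difference 0.00 ± 0.16. The region of smallest p in obesity was at the inner start, chr16:92691800-92701982, 124 to 134 kb from the gene start (0.45 ± 0.16, adjusted p = 0.0965).

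Runx2 lies at chr17:44495987-44814797 on the minus strand, over a part of Supt3, and no called region overlapped Supt3. All 16 of its regions lay within the gene, and no peak was found within the first 34 kb from the outer start or upstream of it. Its promoter peak sat at the inner start, in a region 73.9 to 81.7 kb downstream. Locus signal was 17.73, 17.34 and 17.60 in C and 18.49, 18.89 and 18.40 in H. In the longer experiment it was 17.64 and 17.89 in CC_l and 18.72, 19.27 and 18.78 in HH. Every obese library was higher than its matched controls. After weight loss HC had 18.46, 18.42 and 18.75 against 18.16, 17.47 and 17.81 in CC_s, and HHC had 19.002, 18.73 and 18.13 against 17.93 and 17.58 in CCC. Again no library overlapped with its matched controls. Such separation, higher, in both weight loss pairs was found for 1.6% of all loci.

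The Runx2 differences were 1.04 ± 0.18 for H against C (adjusted p = 0.0273), 1.16 ± 0.23 for HH against CC_l (adjusted p = 0.178), 0.73 ± 0.23 for HC against CC_s (adjusted p = 0.548) and 0.87 ± 0.32 for HHC against CCC (adjusted p = 0.833). Over both durations obesity gave 1.10 ± 0.18 (adjusted p = 0.00187) and weight loss 0.80 ± 0.18 (adjusted p = 0.0316). The order of group means was HH, HHC, H, HC, CC_s, CC_l, CCC and C, and the only neighbours whose ranges were apart were HC and CC_s. For Tgfbr2 the only such break was between HHC and CC_l, and for the other 8 members each group overlapped with the next. The H against C call was lost without C 2 (0.93), C 3 (1.06), H 1 (1.09) or H 2 (0.89), with adjusted p from 0.0561 to 0.0923. The obesity call held without any 1 library (adjusted p up to 0.0159) and without the 4 libraries of low enrichment (1.15, adjusted p = 0.000866), and as a share of the library's summed signal it was 0.95 (adjusted p = 0.0580). The weight loss call was lost without CC_s 2 (0.71), CC_s 3 (0.80), HC 3 (0.75), CCC 1 (0.89) or CCC 2 (0.71), with adjusted p from 0.0577 to 0.155, and without the 4 libraries of low enrichment (0.78, adjusted p = 0.0831). It was also lost on peak height (0.59), with the 30000 strongest peaks (0.54) and as a share of the summed signal (0.54).

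Peaks covered more of Runx2 as well. They spanned 16.4, 13.2 and 23.6 kb in C and 33.6, 36.2 and 27.7 kb in H, and 13.6 and 18.7 kb in CC_l and 24.2, 54.8 and 27.7 kb in HH. After weight loss they spanned 35.8, 27.9 and 18.8 kb in HC against 21.3, 24.0 and 24.3 kb in CC_s, and 35.1, 42.4 and 11.2 kb in HHC against 21.3 and 13.1 kb in CCC. Covered length was longer in every obese library, whereas HC 3 and HHC 3, which had the least peak coverage genome-wide among the weight loss libraries, fell below their controls. On the rank scale the obesity difference was 1.129 ± 0.184 (adjusted p = 0.00295; 1 of 10 members, 3.56% of all loci), at 1.14 without the 4 libraries of low enrichment (adjusted p = 0.00103), and the weight loss difference 0.82 ± 0.18 (adjusted p = 0.0531; 0 of 10 members, 0.567% of all loci). The weight loss difference in covered length passed without CC_s 1 (0.91, adjusted p = 0.0231) or HHC 3 (0.95, adjusted p = 0.0266). Enrichment ratios also differed between the groups. The mean locus signal of the 12 endothelial markers was higher, without overlap, in H than in C and in HC than in CC_s, and the median difference over these markers was 0.51 in obesity and 0.37 in weight loss. The part of either in the Runx2 differences was not tested.

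At the level of regions, 3 intronic Runx2 regions were called, all in H against C. The 146 kb region, chr17:44659804-44668657, is named like the others by its distance from the outer start. It stood at 15.19, 14.39 and 15.32 in C and 16.14, 16.33 and 16.22 in H (1.26 ± 0.28, adjusted p = 0.0233). In HH it was 15.83, 16.50 and 16.20 against 15.66 and 15.45 in CC_l, all higher, and obesity over both durations gave 0.94 ± 0.34 (adjusted p = 0.0981). The 158 kb region, chr17:44649754-44656817, had a peak in 1 of 3 C and 3 of 3 H libraries, and in 1 of 2 CC_l and 3 of 3 HH libraries. It was at the floor in all of C and at 15.60, 15.57 and 14.50 in H (1.21 ± 0.31, adjusted p = 0.0344). It entered that test through H alone, and with no filter it did not pass (adjusted p = 0.102). In the longer experiment it was at 14.01 and 14.27 in CC_l and 14.61, 15.72 and 15.32 in HH. Both obese groups lay above their controls, with 1.14 ± 0.26 over both durations (adjusted p = 0.0105) and 1.297 without the 4 libraries of low enrichment (adjusted p = 0.00201). The 307 kb region, chr17:44498668-44507716, near the 3′ end, stood at 14.54, 14.36 and 14.28 in C and 14.91, 16.34 and 15.82 in H (1.29 ± 0.36, adjusted p = 0.0453), and at 14.80 and 14.41 in CC_l and 15.31, 16.52 and 16.19 in HH. Again both obese groups were apart from their controls (1.35 ± 0.39 over both durations, adjusted p = 0.0393, and 1.52 without the 4 libraries, adjusted p = 0.00136).

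None of these 3 Runx2 regions was called after weight loss, with differences of 0.18 ± 0.34, 0.37 ± 0.26 and 0.76 ± 0.39. HC 3 was at 14.18, 14.01 and 14.01 in them, the lowest of its group. The obesity call of the 158 kb region was lost without CC_l 1 (1.08, adjusted p = 0.0561). That of the 307 kb region was lost without C 1, C 2, C 3, H 2, H 3, CC_l 1, CC_l 2, HH 2 or HH 3 (adjusted p from 0.0618 to 0.141). In H against C the 146 kb call was lost without any library but C 3, the 158 kb call without any but H 3 and the 307 kb call without any but H 1 (adjusted p from 0.0628 to 0.165). Of the 16 Runx2 regions, 9 (56.2%) had no peak in any chow control, beside 47.9% of all regions, and 0 had none in any library of a mouse that had eaten the high-fat diet, beside 9% of all regions.

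Another pair of Runx2 regions was singled out after their values were seen. A region 198.7 to 203.2 kb from the start, chr17:44611634-44616099, had a peak in 0 of 10 control libraries and in 8 of 12 others, 0 of 3 H, 3 of 3 HH, 3 of 3 HC and 2 of 3 HHC. Of the 50085 regions without a control peak, 0.449% had a peak in at least 8 of the 12 other libraries. A region 102 to 109 kb from the start, chr17:44706076-44712884, was higher after weight loss (0.77 ± 0.13, adjusted p = 0.00727), under the fold threshold, with both weight loss groups apart from their controls. Its obesity difference was 0.24 ± 0.13 (adjusted p = 0.291).

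**Figure D5:**
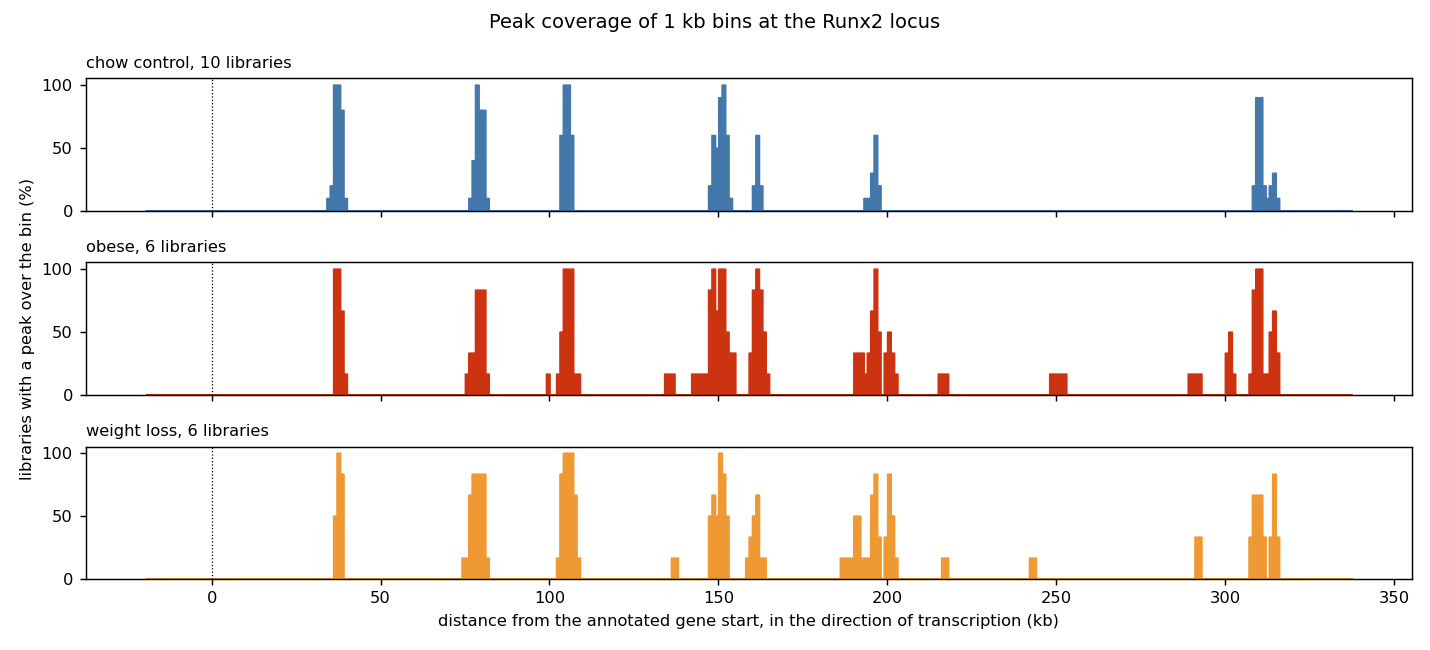
Share of libraries (vertical axis, %) with a peak over at least 50% of each 1 kb bin, by distance from the outer start of Runx2 (horizontal axis, kb), for 10 control, 6 obese and 6 weight loss libraries. Of the bins singled out after their values were seen, that at 161 kb is covered in 6 of 10 control, 6 of 6 obese and 4 of 6 weight loss libraries, and the bin at 200 kb in 0 of 10, 3 of 6 and 5 of 6.

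The windows of a pair of the called Runx2 regions are shown because they lie under the higher signal in H. The 146 kb window is chr17:44663295-44663494 and held the own summit of 18 of 22 libraries. The 158 kb window is chr17:44653277-44653476, in which all 16 libraries with a peak had their summit. Capitals again mark RUNX, AP-1 and SMAD matches, with the same shares of all summit windows. The 158 kb window held 1 RUNX core, 1 AP-1 element and 2 SMAD boxes, and the 146 kb window none of the 3 motifs.
Runx2 146 kb: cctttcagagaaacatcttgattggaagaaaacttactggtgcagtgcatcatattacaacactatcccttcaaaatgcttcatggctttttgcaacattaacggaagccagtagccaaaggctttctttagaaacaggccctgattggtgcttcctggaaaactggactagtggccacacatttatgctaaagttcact
Runx2 158 kb: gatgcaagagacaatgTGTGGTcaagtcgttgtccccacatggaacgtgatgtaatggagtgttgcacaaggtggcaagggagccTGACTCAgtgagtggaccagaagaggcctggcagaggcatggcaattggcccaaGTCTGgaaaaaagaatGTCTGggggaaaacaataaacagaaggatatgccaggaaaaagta

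The loci most alike to each member in pattern over the 22 libraries were taken from 16804 loci, leaving out those within 1 Mb. They are described by Pearson's r, and all points share the libraries, the diets and the scale. For Runx2 they were Nedd4l (0.93), Nup210 (0.89) and Pde7b (0.89), for Tgfbr2 Rassf2 (0.90), Zfp36l1 (0.90) and Rgs3 (0.87), and for Tgfb3 Rock2 (0.88) and Gpc3 (0.88). For Tgfbr3 they were Igf1 (0.85), B4galt1 (0.84) and Rai1 (0.83), and for Tgfb2 Lifr (0.85), Nadk2 (0.83) and Churc1 (0.83). The closest loci were Stard13 (0.83) for Smad3, Rnf32 (0.81) for Tgfb1, Lrrc8c (0.78) for Smad7, Tcf23 (0.73) for Runx1 and Dusp4 (0.72) for Tgfbr1.

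Among 44 other genes of the pathway found in the annotation, of 45 listed, 2 loci passed higher and 3 lower in obesity over both durations, and 0 passed after weight loss, beside 7.86% and 1.96% of all loci. In H against C 3 passed higher and 2 lower, beside 9.13% of all loci. At an unadjusted p of 0.05, 6 were higher and 7 lower after weight loss, beside 20.5% of all loci. The differences of single genes given next are those in obesity over both durations. Acta2, smooth muscle actin and a classical target, was 1.62 ± 0.24 higher (adjusted p = 0.00113), whereas Tagln, another actin-binding target, was 0.59 ± 0.10 lower (adjusted p = 0.00273). Pmepa1, a target that sequesters receptor-activated SMADs, was higher at its promoter (1.27 ± 0.32, adjusted p = 0.0479) and at its locus. Bambi, a pseudo-receptor without kinase, was 0.91 ± 0.20 lower (adjusted p = 0.0138), and Zfyve9, which anchors SMADs at the receptor, was 0.69 ± 0.20 lower (adjusted p = 0.0440). Col3a1, a fibrillar collagen gene that is also on the progenitor and fibroblast marker list, was lower at its promoter (-1.15 ± 0.28, adjusted p = 0.0426). Without the 4 libraries of low enrichment these 6 genes passed in the same direction, with Acta2 at 1.69 (adjusted p = 0.00151) and Zfyve9 at -0.64 (adjusted p = 0.0499). Under that setting 19.4% of all loci and 2.3% of all promoters passed in obesity. Itgb8, an integrin that releases latent TGF-beta (1.41 ± 0.47, adjusted p = 0.0807), the Runx partner Cbfb (-0.38 ± 0.14, adjusted p = 0.105) and the co-repressor Tle3 (0.25 ± 0.09, adjusted p = 0.128) did not pass at their loci. The ubiquitin ligase gene Smurf1 (-1.91 ± 0.64, adjusted p = 0.144) and Smad9 (-0.54 ± 0.20, adjusted p = 0.199) did not pass at their promoters. Of these 5, Itgb8 (1.46, adjusted p = 0.0160) and Smurf1 (-1.93, adjusted p = 0.0253) passed without the 4 libraries. By role, the passes in obesity over both durations were as follows. At their loci, 1 of 6 co-receptors and pseudo-receptors passed higher and 2 lower, and 1 of 8 target genes higher and 1 lower. At their promoters 1 of 6 co-receptors and pseudo-receptors passed higher (Pmepa1) and 1 of 8 target genes lower (Col3a1), beside 1.3% of all promoters. At loci and promoters, none passed in that comparison among 11 activation and storage genes, 6 SMADs and 7 inhibitors and ubiquitin ligases. Nor did any of 6 Runx partners. In H against C, 1 SMAD, 1 Runx partner and 1 target gene passed higher at their loci, and 2 target genes lower. Of 36 promoters tested in H against C, 2 passed, each lower, beside 1.97% of all promoters. They were 1 inhibitor or ubiquitin ligase and 1 Runx partner.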

How the data were processed

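The 22 libraries measured open chromatin by transposase cutting (ATAC-seq). Per the labels, the authors trimmed reads with Trim Galore 0.6.6, aligned them to mm10 (GRCm38) with Bowtie2 2.4.4, used SAMtools 1.13 and bedtools 2.30, and called peaks on each library separately with SEACR 1.3. The deposited values are in the unit signal, coverage summed over a peak (total signal) and its highest coverage (height), with no normalization stated and no read counts, so the depth of each library is unknown. No per-sample column was left unmatched.

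The members and gene lists were chosen with earlier results of these data known. Peaks overlapping by 1 bp were merged into regions. Loci were GENCODE vM21 gene spans with 20 kb flanks, and promoters 2000 bp either side of transcription starts. A peak overlapping either counted with its whole signal, whereas covered length counted only bases inside the locus. Within each library, the 30083 highest regions, 16741 loci or 12422 promoters took the mean log2 value of their rank over all libraries, and the rest took the lowest such value, the floor. Covered length was log2 of bases plus 100, mapped alike. Testing used limma 3.58.1 (R 4.3.3; lmFit, eBayes with trend), for each pair on its own libraries and over both durations on all 22. A region or promoter was tested when the number of libraries above the floor reached the size of the smallest group in the fit, and a locus when at least 1 library was above it. The named regions are, at each locus, the one of smallest p in obesity and those called in any comparison, and the named pathway genes are the 12 of smallest unadjusted p in obesity. The alternatives were peak height, the 30000 strongest peaks, the share of the library's summed signal, clipped signal, gene spans without flanks, no filter, a fit on all libraries, a replicate block and leaving out libraries. Leaving out the 4 libraries with an enrichment ratio under 4, or HC 3 and HHC 3 together, was chosen after seeing the data. The labels call the libraries of a group biological replicates. The scripts were tested on simulated data. Summit windows were read from GRCm38.p6, and RefSeq held promoters of 7 members. A few items that these rules would name are not reported here.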

Additional observations from a re-analysis of the deposited data

How the results depend on the processing

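Counts of members called moved under several settings, and the percentage after each count is the share of all features called under the same setting. For loci, H against C went from 2 (9.13%) to 0 (0%) with the replicate block. Obesity went from 1 (7.86%) to 0 (3.71%) as a share of the library sum, to 2 (17.3%) without HC 3 and HHC 3 and to 2 (19.4%) without all 4 libraries of low enrichment. Weight loss went from 1 (1.96%) to 3 (2.79%) with signal clipped to the locus, and to 0 on peak height (0.42%), with the 30000 strongest peaks (1.78%), as a share of the sum (1.09%) and without those 4 libraries (0.827%). For covered length, H against C went from 2 (2.92%) to 1 (2%) with gene spans alone, obesity from 1 (3.56%) to 2 without HC 3 and HHC 3 (10.1%) or all 4 libraries (10.4%), and weight loss from 0 (0.567%) to 1 with the replicate block (0.183%) and without HC 3 and HHC 3 (0.66%). For promoters, H against C went from 1 (1.97%) to 0 on peak height (1.34%) and with the block (0.236%), and obesity from 0 (1.3%) to 1 (2.3%) without the 4 libraries. For regions, H against C went from 7 (8.28%) to 2 on peak height (8.73%), with the 30000 strongest peaks (6.58%) and with no filter (2.63%), and to 3 (3.16%) in the fit on all 22 libraries. HH against CC_l went from 0 (0%) to 1 (0.464%) with the block. Obesity went from 5 (3.13%) to 1 on peak height (3.24%), 2 with the strongest peaks (2.58%), 3 as a share of the sum (3.12%), 2 with no filter (1.59%) and 3 with the block (2.57%). Weight loss went from 1 (0.983%) to 0 with the block (0.417%) and without the 4 libraries (0.729%), and to 2 (0.891%) without HC 3 and HHC 3. The cause of these moves was not tested.

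Leaving out 1 library at a time gave 0 to 3 member loci in H against C (1.07% to 6.36% of all loci), 1 to 2 in obesity (3.1% to 11.5%) and 0 to 3 in weight loss (0.254% to 6.23%). It gave 0 to 2 (0% to 2.69%), 1 to 2 (0.864% to 5.55%) and 0 to 1 (0.0593% to 1.59%) for covered length, 0 to 0 member promoters in H against C (0.428% to 2.06% of all promoters) and 0 to 1 in weight loss (0.027% to 1.53%). For member regions it gave 0 to 6 in H against C (0.43% to 7.55% of all regions), 0 to 1 in HC against CC_s (0% to 0.244%), 1 to 5 in obesity (2.17% to 3.58%) and 0 to 1 in weight loss (0.457% to 1.49%).

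Direction reversed on peak height for the Tgfbr3 locus (0.077 in H against C, 0.30 in HC against CC_s and 0.25 in weight loss) and for the Smad3 locus in obesity (-0.026), and with gene spans alone for Tgfb3 covered length in weight loss (0.077). Same-numbered libraries correlated in their deviations from group means with r of 0.10, -0.11 and 0.01 in H against C. In HC against CC_s r was -0.08, 0.00 and -0.17. In the longer experiment r was 0.093 and 0.063 in HH against CC_l, and 0.21 and -0.13 in HHC against CCC. With 2 control libraries there, the deviation of each mirrors the other, so these values are not independent. Values from so few libraries cannot show whether the replicate numbers pair libraries. With 2 or 3 libraries a group and unknown depth, a difference that did not pass was not detectable here and is not shown to be absent.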
